A study of Rattus norvegicus with 24 samples.

Results

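The genes described here are the transcription factors of the thyroid follicular cell, Pax8, Nkx2-1, Foxe1, Hhex and Glis3, with the thyrotropin receptor gene Tshr, the G protein gene Gnas, the adhesion gene Cdh16 and the potassium channel genes Kcnq1 and Kcne2. Members were the array probes annotated with one of these 10 symbols, and 9 of the 10 had a probe. These were 13 of the 30367 probes of the array that are not controls, and no probe carried the symbol Glis3. All 13 were among the 23416 probes that passed the filter on dim signals and were tested. The samples were thyroid glands of RccHan Wistar rat pups, each hybridised to its own Agilent 1-colour array, 24 in all and 4 in each of 6 groups. Acrylamide, a small reactive molecule used to make polymers and formed in heated starchy food, was dissolved in the water they drank (daily dose 3 mg per kg of body weight), given to the pregnant rats from gestational day 6 and on to their offspring until postnatal day 35 ± 3. The groups were TFN (acrylamide, females, killed at 10 PM) and its control CTRL-FN, TMN (acrylamide, males, 10 PM) and its control CTRL-MN, and TFM (acrylamide, females, 10 AM) and its control CTRL-FM, where controls drank tap water. Males killed in the morning were not analysed here. Nothing in the labels links replicate numbers to animals or litters, and p-values therefore reflect only the spread among these arrays, which may be technical.

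Thyroid hormone is made by follicular cells, whose identity is set by the joint action of PAX8, NKX2-1, FOXE1 and HHEX. PAX8 and NKX2-1 bind the promoters of the thyroglobulin and iodide transporter genes, and loss of either in mice leaves no normal gland. Thyrotropin from the pituitary binds its receptor on these cells, and the receptor passes the signal through the stimulatory G protein alpha subunit, encoded by Gnas, to adenylyl cyclase and cAMP. KCNQ1 and KCNE2 form a potassium channel in the basolateral membrane that iodide uptake needs in mice.

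Nkx2-1, Tshr, Gnas and Kcnq1 had 2 probes each and the other 5 genes had 1 probe each. For 3 genes the pair lay at different places along 1 transcript, and the probe nearer the start of the transcript is called the coding probe here. The name rests only on a reading frame without a stop codon over nearly the whole probe, and was not checked against a coding annotation. Their downstream partners were not examined in this way. These 3 coding probes are shown because they and their partners near the end of the transcript gave different values in several arrays. Each is 60 bases long, in the sense of the transcript, with its position on rat build rn4 as the array annotation gives it, and no part is singled out.
Tshr (A_64_P065857, chr6:115159335-115159394, plus strand): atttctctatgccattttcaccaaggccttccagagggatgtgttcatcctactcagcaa
Nkx2-1 (A_64_P097669, chr6:76918121-76918180, minus strand): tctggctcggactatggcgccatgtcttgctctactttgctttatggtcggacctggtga
Kcnq1 (A_64_P094313, chr1:203802631-203802690, plus strand): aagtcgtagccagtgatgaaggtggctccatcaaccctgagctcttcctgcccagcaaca
The Tshr probe starts 3026 bases upstream of its partner A_64_P065852, the Nkx2-1 probe 1033 bases upstream of A_42_P563276, and the Kcnq1 probe 897 bases upstream of A_42_P787920. Of the remaining probes, Pax8 A_64_P105580 lies on chromosome 3 at 2671539 to 2671598 (minus strand) and Foxe1 A_64_P075928 on chromosome 5 at 62907922 to 62907981 (plus strand). Hhex A_43_P12437 lies on chromosome 1 at 241741934 to 241741993, Cdh16 A_64_P052765 on chromosome 19 at 289483 to 289542 and Kcne2 A_64_P072973 on chromosome 11 at 32290711 to 32290770, all on the plus strand. Gnas A_44_P378484 lies on chromosome 3 at 165214907 to 165214966 (plus strand), while Gnas A_64_P139412 has no position in the annotation. Gnas is a locus with several overlapping transcripts, and which of them each probe reports was not resolved here.

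A level below is the log2 processed signal minus the 75th percentile of its array, so that 0 stands for that percentile. Levels of different probes are not set against each other, except 2 probes of 1 transcript, whose difference within an array is compared between arrays. The share of spots well above background ran from 71.5% to 82.3% over the arrays. Replicate spots of a member probe differed by a median SD of 0.03 to 0.12 within an array. Night arrays were read in one scan session with no saturated spot, and morning arrays in another with 188 to 469 saturated spots each. Gnas A_64_P139412 was saturated on all 8 morning arrays, so its morning levels are lower bounds and no fold or difference against them is given, although it stays among the 13 probes in the counts, medians and ranges. Tg was saturated on 7 of the 8 morning arrays, TFM replicate 1 being the other. The 3 strata (night females, night males and morning females) lay on separate slides, so time cannot be told apart from scan session and slide, nor sex from slide. On the night slides all acrylamide arrays lay in array row 2 and all controls in row 1, so treatment at night cannot be told apart from row. Of 7 thyrocyte markers (among them Tg, Slc5a5, Duox2, Duoxa2, Iyd and Slc26a4), 6 or 7 were well above background on 23 arrays, and 4 on TFM replicate 1. That array and TMN replicates 2 and 4 stood apart from their groups for these genes, and most results that rest on them are also given without them.

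**Figure D1:**
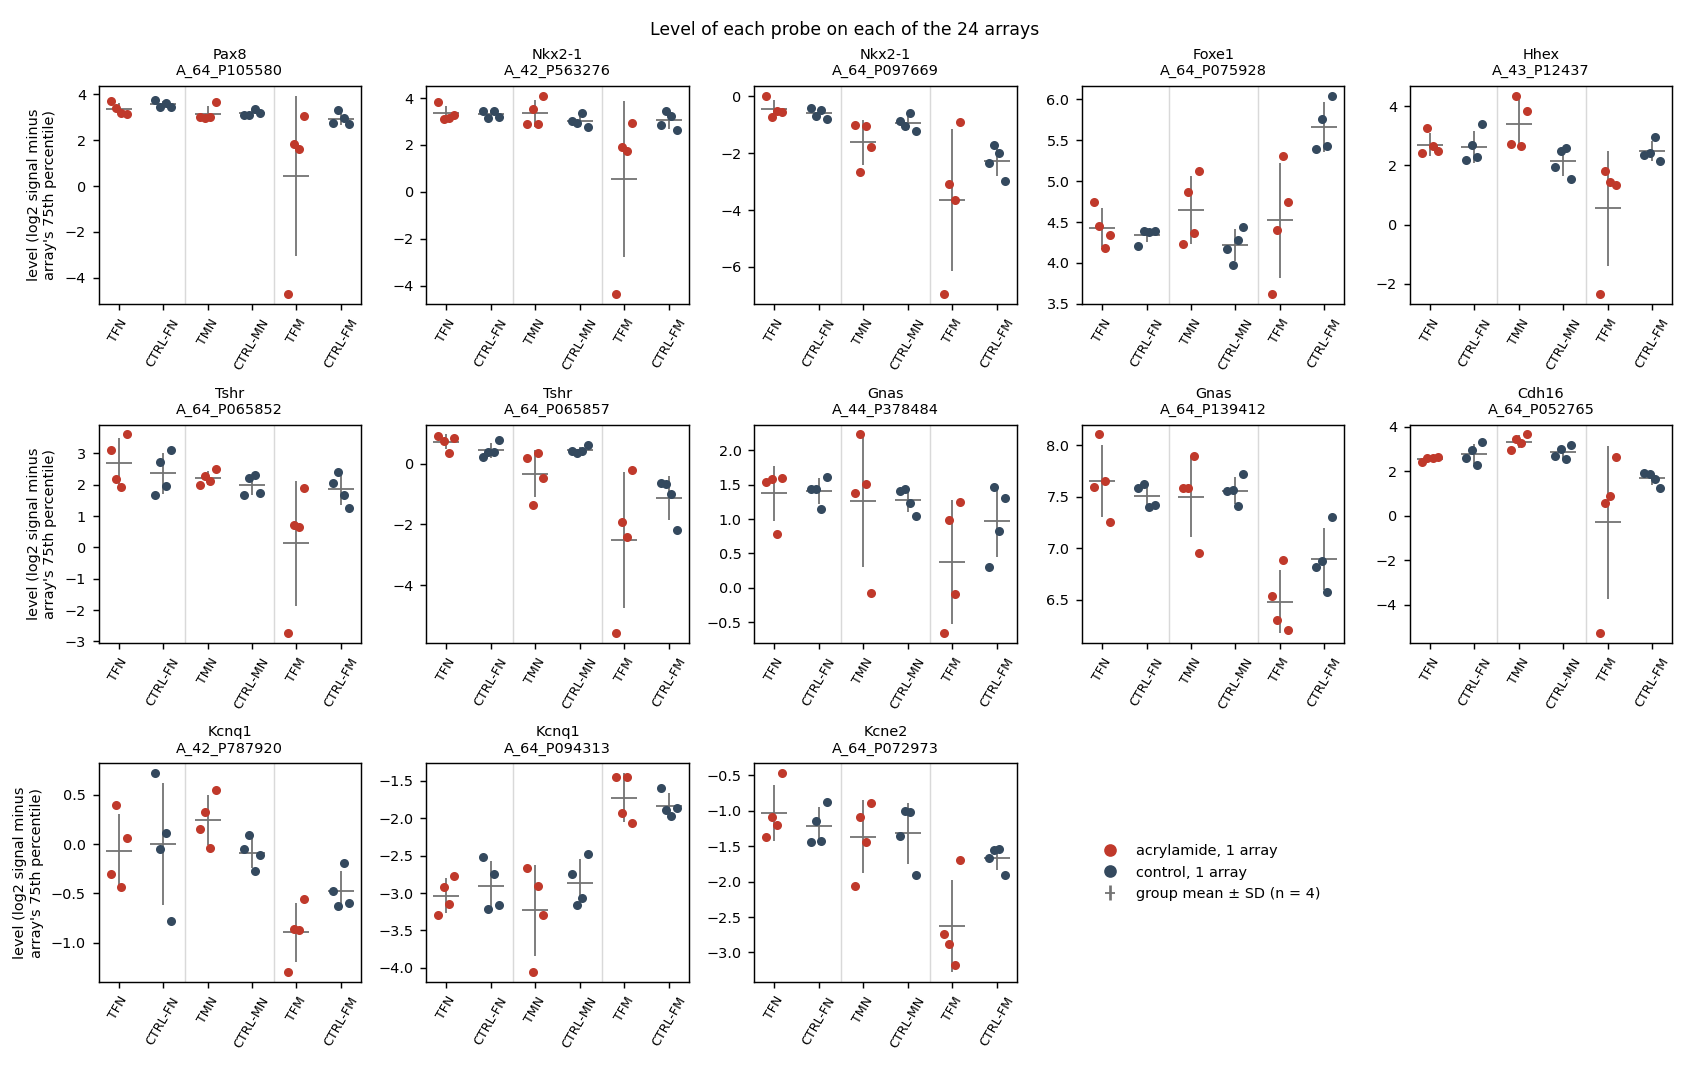
Level of each of the 13 probes (y axis, log2 processed signal minus the 75th percentile of the array) on each of the 24 arrays, by group (x axis), with acrylamide arrays in red, control arrays in dark grey-blue and grey bars for the group mean ± SD (n = 4). TFM replicate 1, the leftmost red point of its group, is the lowest of the 24 arrays for Pax8 at -4.70, while Foxe1 in the 4 CTRL-FM arrays lies at 5.40 to 6.05, above every other array.

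In females at night, acrylamide moved none of these genes past the threshold. Of the 13 probes 0 passed at an adjusted p under 0.05 in limma, as did 0% of all 23416 probes tested, and 0 of the 13 had an unadjusted p under 0.05, against 1.77% of all probes. The differences (TFN minus CTRL-FN) ran from -0.22 to 0.34 with a median of 0.07, against 0.02 over all probes. For 0 of the 13 probes did the 4 acrylamide and 4 control arrays not overlap, against 5.33% of all probes (3.64% higher and 1.69% lower). Pax8, the paired-box factor, was at 3.70, 3.41, 3.19 and 3.14 in TFN, against 3.75, 3.44, 3.62 and 3.46 in CTRL-FN, a difference of -0.21 (SE 0.95, adjusted p = 1). The ranges overlapped, and the SE is wide because it pools the spread of all 6 groups, including TFM. Foxe1, a forkhead factor of the follicular cell, was at 4.74, 4.45, 4.18 and 4.35 in TFN, against 4.21, 4.39, 4.38 and 4.39 in CTRL-FN (difference 0.09, SE 0.26, adjusted p = 1). Tshr at its downstream probe A_64_P065852 was at 3.11, 2.17, 1.93 and 3.60 in TFN, against 1.67, 2.73, 1.95 and 3.09 in CTRL-FN, a difference of 0.34 (SE 0.63, adjusted p = 1). This probe ranged over more than 1 log2 unit within both groups of females at night, with high and low arrays in each. At the coding probe A_64_P065857 the receptor transcript was at 0.91, 0.74, 0.37 and 0.85 in TFN, against 0.21, 0.39, 0.38 and 0.79 in CTRL-FN (difference 0.27, SE 0.68, adjusted p = 1).

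In males at night no member passed the threshold either, but Hhex, the haematopoietically expressed homeobox factor, was higher in every acrylamide array than in any control, and the coding probe of Tshr lower. The members called numbered 0 of 13, with 0% called among all probes, and 0 of 13 had an unadjusted p under 0.05, against 13.7% of all probes. The groups did not overlap for 1 of 13 upwards and 1 of 13 downwards, against 2.8% and 1.54% of all probes, 4.34% together. Differences (TMN minus CTRL-MN) ran from -0.78 to 1.26 with a median of -0.02, and over all probes the median was -0.01. Hhex was at 2.74, 4.36, 2.65 and 3.84 in TMN, against 1.96, 2.48, 2.57 and 1.52 in CTRL-MN, a difference of 1.26 (2.39-fold, SE 0.62, adjusted p = 0.37). TMN replicates 2 and 4 were the highest of the 8 arrays, and with them and TFM replicate 1 left out the difference was 0.56 (SE 0.34, adjusted p = 1). Foxe1 was at 4.24, 4.87, 4.36 and 5.12 in TMN, against 4.17, 3.97, 4.28 and 4.43 in CTRL-MN (difference 0.43, SE 0.26, adjusted p = 0.434), and again replicates 2 and 4 were the high ones. Without the 3 arrays the Foxe1 difference was 0.09 (SE 0.23, adjusted p = 1). The coding probe of Tshr was at 0.19, -1.36, 0.35 and -0.48 in TMN, against 0.41, 0.37, 0.42 and 0.61 in CTRL-MN. TMN replicates 2 and 4 were the low ones, while replicate 3 lay just under the controls. The difference was -0.78 (SE 0.68, adjusted p = 0.583), and -0.18 (SE 0.46, adjusted p = 1) without the 3 arrays.

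Within males the upstream and downstream probes of Nkx2-1, Tshr and Kcnq1 parted on the same 2 acrylamide arrays. Nkx2-1, the homeobox factor also called thyroid transcription factor 1, was at 2.90, 3.53, 2.89 and 4.10 in TMN at its downstream probe, against 3.01, 2.93, 3.38 and 2.77 in CTRL-MN. Its coding probe, shown above, was at -1.02, -2.66, -1.02 and -1.78 in TMN, against -0.87, -1.05, -0.60 and -1.20 in CTRL-MN. Replicates 2 and 4 of TMN were thus the highest of their group at one end of the transcript and the lowest at the other. The coding level minus the downstream level of Nkx2-1 was -3.92, -6.20, -3.91 and -5.88 in TMN, against -3.88, -3.98, -3.97 and -3.98 in CTRL-MN, so 2 TMN arrays lay at the control value and 2 about 2 log2 units under it. For Tshr, the same difference was -1.81, -3.64, -1.75 and -3.0 in TMN, against -1.27, -1.86, -1.89 and -1.13 in CTRL-MN. For Kcnq1, the alpha subunit of the basolateral channel, it was -2.81, -4.38, -2.87 and -3.84 in TMN, against -2.70, -3.24, -2.79 and -2.36 in CTRL-MN. Replicates 2 and 4 were the lowest TMN arrays in all 3 genes. Over 1550 transcripts with probes at least 500 bases apart, the median upstream minus downstream difference, relative to the control mean, was -0.85 and -0.62 on these 2 arrays. The other 22 arrays had medians between -0.22 and 0.35, so the 2 arrays differ from the rest in this way across transcripts and not at these genes alone. An exact permutation test of the upstream minus downstream difference between acrylamide and control gave Benjamini-Hochberg adjusted p of 0.36 to 0.943 over 9 tests (3 genes in 3 comparisons, 4 arrays against 4, 2-sided), where the smallest unadjusted p that the design allows is 0.0286.

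**Figure D2:**
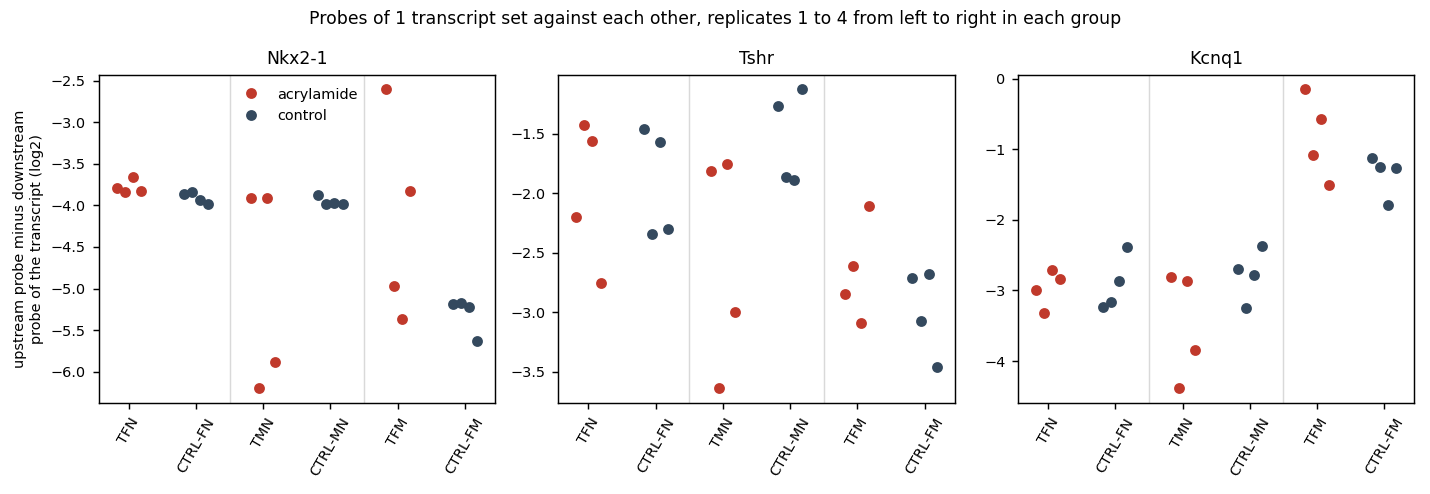
Level of the coding (upstream) probe minus level of the downstream probe of the same transcript (y axis, log2) for Nkx2-1, Tshr and Kcnq1 on each array, by group (x axis), acrylamide in red and controls in dark grey-blue, with replicates 1 to 4 from left to right. For Nkx2-1, TMN replicates 2 and 4 lie at -6.20 and -5.88, apart from the other 2 TMN arrays and the 4 CTRL-MN arrays, which lie between -3.98 and -3.88.

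Markers of the pituitary also differed between the male groups: the mean level of Prl, Gh1, Pomc, Cga and Tshb was 1.07, 1.97, -2.87 and -1.82 in TMN, against -5.70, -5.94, -4.58 and -5.51 in CTRL-MN, with 4 or 5 of 5 well above background in TMN and 2 to 4 in CTRL-MN. The parathyroid markers Pth, Gcm2 and Casr averaged -1.74 on TMN replicate 4 and 3.46 to 4.22 in CTRL-MN. Skeletal muscle markers averaged 2.09 on TMN replicate 2, against 7.02 to 8.16 in CTRL-MN. The part of these other tissues in the values of Hhex and Tshr was not tested. Thyrocyte markers averaged 1.87 to 2.30 in TMN and 1.49 to 1.74 in CTRL-MN. In females at night the pituitary mean was -6.08, -0.81, -2.55 and -2.88 in TFN, against -6.00 to -4.56 in CTRL-FN, beside the member differences given above.

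Among the remaining members in males, Pax8 was at 3.02, 2.96, 3.01 and 3.64 in TMN, against 3.09, 3.10, 3.37 and 3.19 in CTRL-MN, a difference of -0.03 (SE 0.95, adjusted p = 0.992). Cdh16, a cadherin of thyroid and kidney epithelium, was at 2.96, 3.46, 3.27 and 3.66 in TMN, against 2.68, 3.00, 2.56 and 3.18 in CTRL-MN (difference 0.48, SE 0.95, adjusted p = 0.826). Gnas A_44_P378484 was at 1.38, 2.23, 1.51 and -0.07 in TMN, against 1.41, 1.44, 1.23 and 1.05 in CTRL-MN, so TMN held both the highest and the lowest array and the means differed by -0.02 (SE 0.41). Gnas A_64_P139412, Kcnq1 and Kcne2 had overlapping ranges, with differences between -0.37 and 0.33.

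In females in the morning nearly all members were lower with acrylamide on average, and Foxe1 was the one that passed the test. Of the 13 probes 1 was called lower and 0 higher, against 1.44% of all 23416 probes called lower and 0.389% called higher, 1.83% in all. Unadjusted p was under 0.05 for 6 of 13, against 23.4% of all probes. The SE pools the spread of all 6 groups, so it is too narrow here for probes that spread most in TFM. For Pax8 the SD was 3.49 in TFM and 0.13 to 0.32 in the night groups. Fitted with the morning arrays alone, 0% of all probes and 0 of 13 members were called. Groups did not overlap for 2 of 13 (Foxe1 and Hhex, both lower), against 8.47% of all probes (6.55% lower and 1.92% higher). The differences (TFM minus CTRL-FM) were negative for 12 of 13 probes, with a median of -1.39, against -0.10 over all probes, and ran from -2.50 to 0.11. Without TFM replicate 1 the median of the members was -0.43, against -0.08 over all probes. In bulk tissue, fewer follicular cells and less RNA per cell cannot be told apart. The number of called probes turned on single arrays: without TFM replicates 1, 2, 3 and 4 in turn it was 18, 1075, 2386 and 1842 of all probes, and without CTRL-FM replicates 1 to 4 in turn it was 54, 2, 19 and 207. Member probes called were 0, 2, 2 and 8 when the TFM replicates were left out in that order, and 0 without any one of the CTRL-FM replicates.

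Foxe1 was at 3.62, 4.40, 5.31 and 4.75 in TFM, against 5.40, 5.75, 5.43 and 6.05 in CTRL-FM. Every acrylamide array was below every control array, with TFM replicate 3 and CTRL-FM replicate 1 the nearest to each other. Foxe1 fell by 1.14 on the log2 scale (2.20-fold, SE 0.26, adjusted p = 0.0415 in limma). Over 22 alternative settings the Foxe1 difference was negative in 22, between -1.86 and -0.67, and past the threshold in 9, with adjusted p from 0.00672 to 0.415. Without TFM replicate 1 it was -0.84 (adjusted p = 0.146), and without CTRL-FM replicates 1, 2, 3 and 4 in turn the adjusted p was 0.0669, 0.129, 0.0862 and 0.0714. With slide as a term it was -1.10 (adjusted p = 0.0766). Within slide 3, which held TFM replicates 2 and 3 and CTRL-FM replicates 1 to 3, the difference was -0.67 (adjusted p = 0.415), and within slide 4, with TFM replicates 1 and 4 and CTRL-FM replicate 4, it was -1.86 (adjusted p = 0.0123).

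Pax8 was at -4.70, 1.81, 1.63 and 3.05 in TFM, against 2.74, 3.29, 2.98 and 2.71 in CTRL-FM. Replicate 1 was far below all others, replicates 2 and 3 were below every control, and replicate 4 was among the controls. The mean difference was -2.49 (5.60-fold, SE 0.95, adjusted p = 0.132), and -0.77 (SE 0.26, adjusted p = 0.23) without TFM replicate 1. Nkx2-1 at its downstream probe A_42_P563276 was at -4.35, 1.90, 1.73 and 2.92 in TFM, against 2.85, 3.46, 3.24 and 2.63 in CTRL-FM, and as for Pax8 replicate 1 was far below all others, replicates 2 and 3 were below every control and replicate 4 was among the controls. Its difference was -2.50 (5.65-fold, SE 0.92, adjusted p = 0.121), and -0.87 (SE 0.30, adjusted p = 0.246) without replicate 1. The coding probe of Nkx2-1 was at -6.96, -3.08, -3.63 and -0.91 in TFM, against -2.33, -1.72, -1.98 and -2.99 in CTRL-FM, and it was not well above background on TFM replicate 1. Here replicate 4 was above all controls, and the difference was -1.39 (SE 0.74, adjusted p = 0.252), or -0.28 without replicate 1. Hhex was at -2.35, 1.81, 1.43 and 1.32 in TFM, against 2.37, 2.42, 2.96 and 2.16 in CTRL-FM. All 4 acrylamide arrays were below all 4 controls, with a difference of -1.92 (3.79-fold, SE 0.62, adjusted p = 0.0901). Without TFM replicate 1 the Hhex difference was -0.96 (SE 0.38, adjusted p = 0.315).

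Tshr at A_64_P065852 was at -2.72, 0.70, 0.67 and 1.90 in TFM, against 2.06, 2.40, 1.67 and 1.26 in CTRL-FM. Replicates 1 to 3 were below every control and replicate 4 was among them, and the difference was -1.71 (3.28-fold, SE 0.63, adjusted p = 0.121). At the coding probe A_64_P065857 the values were -5.57, -1.91, -2.42 and -0.21 in TFM, against -0.65, -0.67, -1.0 and -2.19 in CTRL-FM, with TFM replicate 1 not well above background and replicate 4 above all controls (difference -1.40, SE 0.68, adjusted p = 0.217). Without TFM replicate 1 the differences of the 2 probes were -0.76 and -0.38 (adjusted p = 0.47 and 0.76). For the G protein, Gnas A_44_P378484 was at -0.66, 0.98, -0.09 and 1.25 in TFM, against 0.31, 1.47, 0.82 and 1.31 in CTRL-FM, with overlapping ranges (difference -0.60, SE 0.41, adjusted p = 0.373). The other probe, A_64_P139412, was saturated at 6.20 to 6.88 in TFM and 6.58 to 7.30 in CTRL-FM, which are bounds and were not compared.

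Cdh16 was at -5.26, 0.57, 0.91 and 2.66 in TFM, against 1.94, 1.87, 1.65 and 1.26 in CTRL-FM. Replicate 1 was lowest, replicates 2 and 3 were below every control and replicate 4 above every control, and the difference was -1.96 (3.90-fold, SE 0.95, adjusted p = 0.215), or -0.30 without replicate 1. Kcne2, the beta subunit of the channel, was at -2.74, -2.88, -3.18 and -1.70 in TFM, against -1.67, -1.56, -1.54 and -1.91 in CTRL-FM. Its replicates 1 to 3 lay close together below all controls while replicate 4 lay among them, giving a difference of -0.96 (1.94-fold, SE 0.30, adjusted p = 0.0815). With 1 array left out at a time, the Kcne2 difference ran from -1.27 to -0.77. It stayed on the same side of the threshold in 7 of 8 such settings. The exception was without replicate 4 (-1.27, adjusted p = 0.00881 in limma). As that array was the one among the controls, its removal was bound to widen the difference. Kcnq1 at A_42_P787920 was at -1.29, -0.86, -0.87 and -0.56 in TFM, against -0.48, -0.63, -0.19 and -0.59 in CTRL-FM (difference -0.42, SE 0.25, adjusted p = 0.298). At its coding probe Kcnq1 was at -1.45, -1.93, -1.44 and -2.06 in TFM, against -1.60, -1.89, -1.98 and -1.86 in CTRL-FM, a difference of 0.11 (SE 0.25, adjusted p = 0.814) and the one positive value among the 13.

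**Figure D3:**
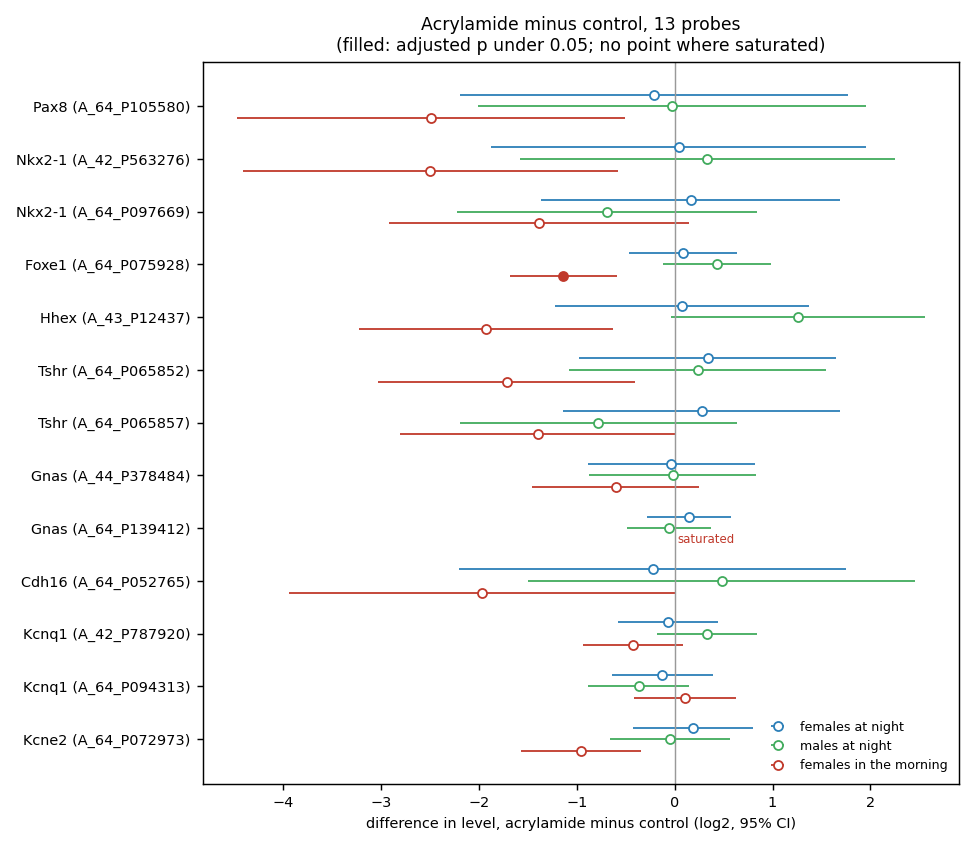
Difference in level between acrylamide and control (x axis, log2, points with 95% confidence intervals from limma) for each of the 13 probes (y axis) in night females (blue), night males (green) and morning females (red). The 1 filled point, Foxe1 in females in the morning at -1.14, has an adjusted p under 0.05, and Gnas A_64_P139412 has no morning point because it was saturated.

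TFM replicate 1 set the size of several of these differences, and the members did not follow it alike. Its level minus the mean of the 4 CTRL-FM arrays was -7.63 for Pax8, -7.40 for Nkx2-1 (downstream), -6.95 for Cdh16, -4.82 for Hhex and -4.57 for Tshr (downstream). On the same array the difference was -2.04 for Foxe1, -1.63 for Gnas A_44_P378484, -1.07 for Kcne2, -0.82 for Kcnq1 A_42_P787920 and 0.38 for the coding probe of Kcnq1. On TFM replicates 2 and 3 it was -1.12 and -1.30 for Pax8, -1.15 and -1.32 for Nkx2-1 (downstream), -1.15 and -1.18 for Tshr (downstream) and -1.21 and -1.51 for Kcne2. On replicate 4 the same 4 probes were at 0.12, -0.13, 0.05 and -0.03, close to the control mean, while Foxe1 was at -0.91 and Hhex at -1.15. With replicate 4 left out, 8 of the 13 probes passed the threshold, all lower: Pax8, Nkx2-1 and Tshr at both probes each, Foxe1, Cdh16 and Kcne2, with adjusted p from 0.00881 to 0.0436. In that setting 7.87% of all probes were called, 1842 in number, of which 1353 were lower. Replicate 4 lay near the control mean for several of these probes, so its removal favours such calls.

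**Figure D4:**
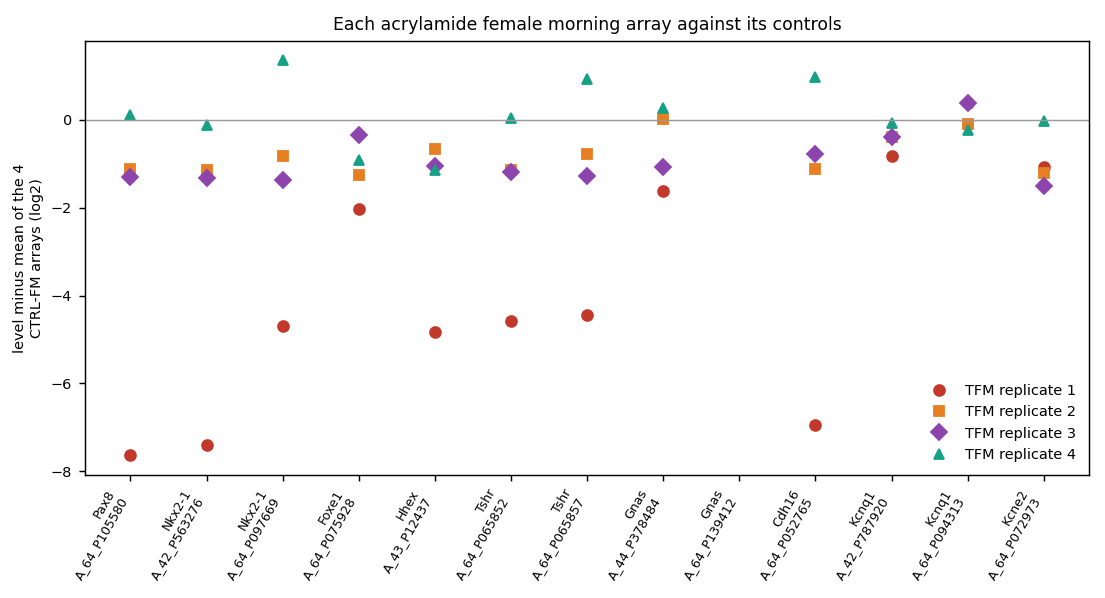
Level of each of the 13 probes (x axis) on each TFM array minus the mean of the 4 CTRL-FM arrays (y axis, log2). Replicate 1 (red circles) lies between -7.63 and -4.44 for Pax8, Nkx2-1, Hhex, Tshr and Cdh16 and between -2.04 and 0.38 for the other probes, and replicate 4 (green triangles) lies near or above 0 except for Foxe1 and Hhex. Gnas A_64_P139412 has no points because it was saturated.

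Markers of other cells differed among the morning arrays as well. The thyrocyte marker mean was -4.02, 1.15, 0.92 and 1.41 in TFM, against 1.73, 1.84, 1.85 and 1.55 in CTRL-FM. Parathyroid markers averaged -5.28, 2.16, -2.55 and 2.84 in TFM, against -0.72, 2.32, 2.35 and 2.50 in CTRL-FM, and C cell markers -2.60 on TFM replicate 1, against 1.1 to 2.12 in CTRL-FM. Oesophageal epithelium markers (Krt13, Krt4, Krt5, Krt14, Dsg3 and Dsc3, the 6 of 7 listed that had a probe) averaged 0.72, -1.77, 0.97 and -3.41 in TFM, against -3.06, -2.13, -3.25 and -3.26 in CTRL-FM. T cell markers averaged 1.71 on TFM replicate 2, against -4.56 to -1.91 in CTRL-FM. On TFM replicate 1, 7 of 7 thyrocyte, 5 of 7 C cell and 3 of 3 parathyroid markers were below all 4 controls, while 5 of 6 oesophageal markers were above all 4 and 1, Dsc3, was below. For TFM replicates 2, 3 and 4 in turn, thyrocyte markers below all 4 controls numbered 5, 5 and 6 of 7, counting the saturated Tg, and 0, 0 and 1 were above. C cell markers below numbered 4, 3 and 3 of 7, with 0 above. Parathyroid markers below numbered 0, 2 and 0 of 3, with 1, 0 and 1 above. Oesophageal markers above numbered 4, 5 and 0 of 6, with 2, 1 and 3 below. The part of tissue content in the member values was not tested. Of the 2 arrays with high oesophageal means, TFM replicate 3 had the highest Foxe1 level of its group and TFM replicate 1 the lowest.

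Genes around the members were read from 4 lists: the cAMP cascade of the receptor, follicular target genes of the factors, cofactors and other factors of thyroid development, and partners of the channel with apical ion handling. With acrylamide 0 listed genes passed at night, in either sex. In females in the morning 1 of 15 follicular targets passed, where 1.44% of all probes were called lower: Duox2, the dual oxidase that supplies hydrogen peroxide for iodination, fell by 0.82 on the log2 scale (SE 0.20, adjusted p = 0.0453). Without TFM replicate 1 the Duox2 difference was -0.61 (SE 0.18, adjusted p = 0.18) and 0 of 15 passed. All 15 targets had a negative difference with and without that array, with a median of -1.08 over all arrays and -0.41 without it, against -0.10 and -0.08 over all probes. Named after its values were seen, because the factors act on it, was Slc5a5, the iodide transporter, at -2.42 (SE 1.18, adjusted p = 0.218), and at -0.33 (SE 0.39, adjusted p = 0.761) without TFM replicate 1. In the cAMP cascade 0 of 32 genes passed, 19 were negative and 13 positive, and the median of -0.03 was nearer 0 than that over all probes. The developmental list had 0 of 21 past the threshold (12 negative, median -0.15) and the channel list 0 of 11 (10 negative, median -0.50).

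The differences between strata were tested directly. No member passed for the acrylamide effect in males minus that in females at night, nor for the effect at night minus that in the morning in females, where 0% of all probes passed in each case. For males minus females 0 of 13 had an unadjusted p under 0.05, against 2.25% of all probes. Night minus morning, the unadjusted p was under 0.05 for 4 of 13 members, against 15.8% of all probes: Foxe1 (1.22, SE 0.37, adjusted p = 0.234), Kcne2 (1.14, SE 0.42, adjusted p = 0.241), Tshr downstream (2.06, SE 0.89, adjusted p = 0.278) and Hhex (2.00, SE 0.88, adjusted p = 0.281). Without TFM replicate 1 these were 0.92, 1.1, 1.1 and 1.03, with adjusted p of 0.451, 0.494, 0.561 and 0.564, and the median of the members was 0.58, against 1.55 over all arrays. These 2 tests share arrays with the comparisons above. For the mean of the 3 acrylamide effects 0 of 13 members passed, against 0.00427% of all probes, and 0 of 13 had an unadjusted p under 0.05, against 6.67%. The differences ran from -0.91 to -0.05 with a median of -0.27, which was -0.11 without TFM replicate 1.

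Apart from acrylamide, control females differed between night and morning at Foxe1 and at the coding probe of Kcnq1. Foxe1 was lower at night, at 4.21, 4.39, 4.38 and 4.39 in CTRL-FN, against 5.40, 5.75, 5.43 and 6.05 in CTRL-FM, with no overlap, a difference of -1.32 (2.49-fold, SE 0.26, adjusted p = 0.000335). The coding probe of Kcnq1 was also lower at night, at -2.51, -3.21, -2.75 and -3.16 in CTRL-FN, against -1.60, -1.89, -1.98 and -1.86 in CTRL-FM (difference -1.08, 2.11-fold, SE 0.25, adjusted p = 0.00122). Its partner A_42_P787920 had the opposite sign, at 0.72, -0.05, 0.11 and -0.78 in CTRL-FN, against -0.48, -0.63, -0.19 and -0.59 in CTRL-FM (difference 0.48, SE 0.25, adjusted p = 0.119). Gnas A_64_P139412 passed the test as higher at night, but its morning arrays were saturated, so no direction can be read from it. Counting it, 1 probe was called higher and 2 lower of 13, against 21% and 26.6% of all probes, 47.6% together, and 5 of 13 had an unadjusted p under 0.05, against 53.4%. Groups did not overlap for 6 of 13 upwards and 2 of 13 downwards, against 27.3% and 29.2% of all probes, 56.5% together. The share of members called was below the background, but the SE pools the spread of all 6 groups, including TFM. For Pax8 the SD was 3.49 in TFM, against 0.15 in CTRL-FN and 0.27 in CTRL-FM, so the SE is wide for this comparison. With TFM replicate 1 and TMN replicates 2 and 4 left out, 7 of 13 were called, against 55% of all probes. Time, scan session and slide cannot be told apart.

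The coding and downstream probes of the pair genes also parted between CTRL-FN and CTRL-FM, which differ in time, scan session and slide. The same difference over all transcripts was not computed for this comparison, in which 56.5% of single probes did not overlap. The coding minus downstream level of Nkx2-1 was -3.86, -3.83, -3.93 and -3.98 in CTRL-FN, against -5.19, -5.17, -5.22 and -5.63 in CTRL-FM, without overlap. For Tshr it was -1.46, -2.34, -1.57 and -2.30 in CTRL-FN, against -2.71, -3.07, -2.68 and -3.46 in CTRL-FM, again without overlap. For Kcnq1 the direction was the other way, with -3.23, -3.17, -2.86 and -2.38 in CTRL-FN, against -1.12, -1.25, -1.78 and -1.26 in CTRL-FM. The night minus morning difference of Nkx2-1 was 1.66 at the coding probe (SE 0.74, adjusted p = 0.0685) but 0.26 at the downstream probe (SE 0.92, adjusted p = 0.84), and that of Tshr 1.57 (SE 0.68, adjusted p = 0.0623) but 0.51 (SE 0.63, adjusted p = 0.538). Pax8 (0.63, SE 0.95), Cdh16 (1.11, SE 0.95) and Kcne2 (0.45, SE 0.30) were above the morning range on all 4 night arrays without passing the test, and Hhex differed by 0.15 (SE 0.62, adjusted p = 0.863).

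**Figure D5:**
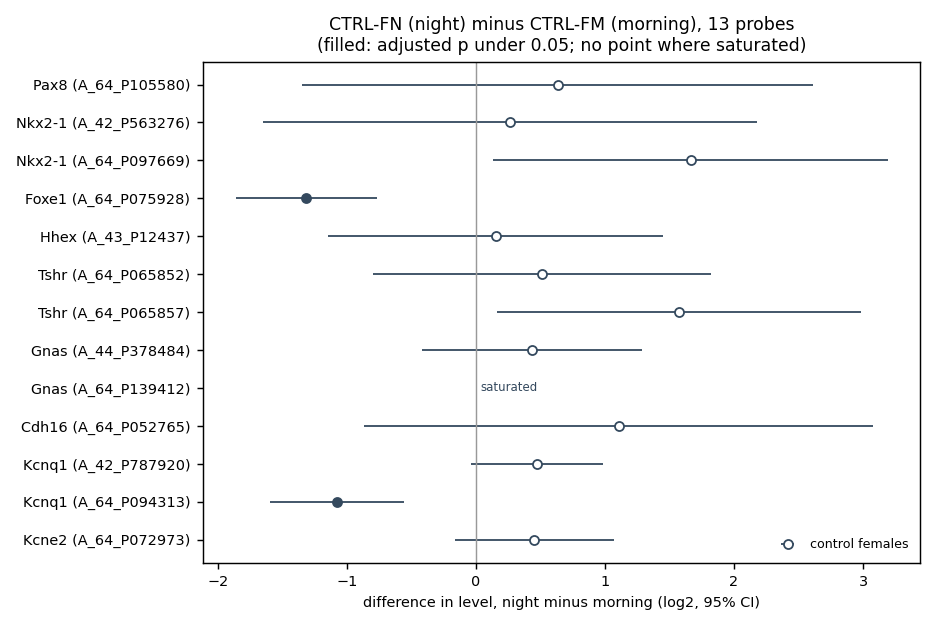
Difference in level between CTRL-FN (night) and CTRL-FM (morning) arrays (x axis, log2, points with 95% confidence intervals from limma) for each of the 13 probes (y axis). Filled points have an adjusted p under 0.05: Foxe1 at -1.32 and the coding probe of Kcnq1 at -1.08. Gnas A_64_P139412 has no point because it was saturated on the morning arrays.

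The pathway lists are read against all probes, of which 21% were called higher at night and 26.6% lower, 47.6% in all, and a count near that share is no result about a list. In the cAMP cascade 9 of 32 genes were higher at night and 6 lower, a share near the background. Gnb2, a G protein beta subunit, differed by 2.12 (SE 0.49, adjusted p = 0.00126), and Adcy7, an adenylyl cyclase, by -1.50 (SE 0.28, adjusted p = 0.000136). The cAMP phosphodiesterase gene Pde4a differed by -0.75 (SE 0.15, adjusted p = 0.000254). Of the developmental list 4 of 21 were higher and 3 lower, below the background share, with Yap1, a coactivator of the Hippo pathway, at -2.07 (SE 0.19, adjusted p = 1.75e-08) and Isl1, an islet homeobox factor, at 1.20 (SE 0.26, adjusted p = 0.000642). Of the channel list 2 of 11 were higher and 4 lower, with Kcne1, another beta subunit of KCNQ1, at -2.98 (SE 0.41, adjusted p = 4.65e-06). Of the follicular targets 1 of 15 was higher, Duox1 (0.62, SE 0.24, adjusted p = 0.0351), and 1 lower, Slc26a4, the pendrin gene (-3.15, SE 0.26, adjusted p = 2.84e-09).

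Between control males and control females at night 0 of 13 members passed, against 0.00854% of all probes, and 0 of 13 had an unadjusted p under 0.05, against 1.61%. Differences (CTRL-MN minus CTRL-FN) ran from -0.49 to 0.07, and groups did not overlap for 1 of 13, against 3.71% of all probes (1.98% higher and 1.73% lower). That 1 was Pax8, lower in males, at 3.09, 3.10, 3.37 and 3.19 in CTRL-MN, against 3.75, 3.44, 3.62 and 3.46 in CTRL-FN, a difference of -0.38 (SE 0.95, adjusted p = 1). Foxe1 (-0.13), Kcnq1 (-0.09 and 0.05) and Kcne2 (-0.10) had smaller differences with overlapping ranges.

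Ordered by group mean, Pax8 ran 3.57 in CTRL-FN, 3.36 in TFN, 3.19 in CTRL-MN, 3.16 in TMN, 2.93 in CTRL-FM and 0.45 in TFM, and each group overlapped its neighbour in that order. Foxe1 ran 5.66 in CTRL-FM, 4.65 in TMN, 4.52 in TFM, 4.43 in TFN, 4.34 in CTRL-FN and 4.22 in CTRL-MN, and only CTRL-FM was apart from its neighbour in the ordering, by 1.01. The TFM mean of Foxe1 lay within the range of the night group means. Tshr (downstream) ran 2.70 in TFN, 2.36 in CTRL-FN, 2.22 in TMN, 1.99 in CTRL-MN, 1.85 in CTRL-FM and 0.13 in TFM, with every neighbour overlapping. Cdh16 ran 3.34 in TMN, 2.86 in CTRL-MN, 2.79 in CTRL-FN, 2.56 in TFN, 1.68 in CTRL-FM and -0.28 in TFM, with a break of 0.88 between TFN and CTRL-FM.

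For 4 members, the genes most like them were listed by Pearson's r of deviations from the group means over the 24 arrays, with Spearman's rho and with r over 22 arrays after leaving out TFM replicate 1 and 1 other TFM array. The probe with the highest mean stood for Nkx2-1 and Tshr, in both cases the downstream one. For Pax8 these included Ppp1r1b and Slc26a7 (r = 0.991 and 0.988, rho = 0.78 and 0.79, r over 22 arrays = 0.931 and 0.894). For Nkx2-1 they were Klhl14, Slc23a1 and Folr1 (r = 0.992, 0.989 and 0.987, rho = 0.93, 0.924 and 0.854, r over 22 arrays = 0.947, 0.956 and 0.93). For Tshr they were Dcdc2, Krt75 and Kcnj16 (r = 0.942, 0.926 and 0.924, rho = 0.843, 0.83 and 0.803), and r fell to 0.794, 0.746 and 0.726 over 22 arrays. For Foxe1 they were Cpg1, Cdk17 and Mxra7 (r = 0.866, 0.856 and 0.853, rho = 0.864, 0.707 and 0.723), with 0.84, 0.728 and 0.717 over 22 arrays. These values were picked as the highest of all probes and carry no test, and the arrays share tissue content, session and slide.

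Among the members themselves, deviations from the group means were compared over the 23 arrays other than TFM replicate 1, as a description without a test. Over 78 pairs of probes Pearson's r ran from -0.73 to 0.87 with a median of 0.12. Pax8 and Nkx2-1 (downstream) deviated together (r = 0.86, rho = 0.74, and r = 0.78 over 21 arrays without TFM and TMN replicate 4). The coding probes of Nkx2-1 and Tshr did so as well (r = 0.87, rho = 0.68, and r = 0.79 over 21 arrays without TFM replicates 3 and 4). Hhex and the coding probe of Kcnq1 had the lowest value (r = -0.73, rho = -0.67). The arrays behind these values include TMN replicates 2 and 4, where upstream and downstream probes parted, and the morning arrays, where markers of other tissues differed. The part of either in these correlations was not tested.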

How the data were processed

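Thyroid RNA was labelled with Cy3 and hybridised to 24 Agilent 1-colour arrays, per the labels' protocols. The deposited scanner files hold spot intensity, extracted with Feature Extraction 10.1.1.1 per the file headers, and the processed signal was used. The authors' deposited series matrix holds log2 values of the same arrays and served as an alternative. Here control spots and spots marked as outliers in the files were left out, log2 processed signals of the spots of a probe were averaged, and each array's 75th percentile over probes was subtracted. Probes well above background on at least 3 of 4 arrays of a group were kept, 23416 of 30367. Limma 3.58.1 in R 4.3.3 was fitted to 6 group means (18 residual degrees of freedom), with p-values adjusted by Benjamini-Hochberg over all kept probes at 0.05. The same steps were first tested on simulated data, in which a probe had the same spread in all 6 groups. A wider spread in TFM alone was therefore not covered by that simulation. Every probe of a member is named, with up to 6 called genes of each pathway list by adjusted p, of which some are printed, and the 3 genes most like each of 4 members. One gene that these rules name is not reported here. The members and lists were chosen with earlier results of these data known. Replicate numbers pair no samples: same-numbered arrays had correlations of -0.24 to 0.36 and 2 of 12 were most like their own number. The number of arrays, 4 a group, limits the precision.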

Additional observations from a re-analysis of the deposited data

Results flagged for a closer look

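In 6 of 78 sets of 4 arrays the highest or lowest array lay far from the other 3, where chance gives about 1 in 20. These were Pax8 on TMN replicate 4 (3.64, high), Nkx2-1 A_42_P563276 on TFM replicate 1 (-4.35, low) and Hhex on TFM replicate 1 (-2.35, low). The others were Foxe1 on CTRL-FN replicate 1 (4.21, low), Gnas A_44_P378484 on TFN replicate 3 (0.78, low) and Cdh16 on TFN replicate 1 (2.41, low). Hhex was above all controls in every acrylamide array of males at night (difference 1.26) and below all controls in every acrylamide array of females in the morning (difference -1.92), and the difference between these effects was not tested.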

How the results depend on the processing

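Of the values recomputed under the alternatives, 944 kept direction and side of the threshold, 46 changed sign, 25 came past the threshold and 14 lost it, and the cause was not tested. For females in the morning the probes called numbered 218 with normexp, 1059 with quantile normalization, 18 with the median in place of the percentile, 18 with the deposited series matrix, 111 without the filter, 0 with the stratum alone, 4 with array weights, 94 with slide as a term, 153 without the 3 arrays that stand apart (chosen after seeing the data), 74 within slide 3 and 1890 within slide 4 (also chosen after seeing the data). Leaving out 1 array gave 2 to 2386. Member probes called there were 0 with the median, the series matrix, no filter, the stratum alone, array weights, slide as a term, the 3 arrays out and within slide 3, and 0 to 8 leaving out 1 array. For males at night the calls were 3 with normexp, 2 with the median, 2 with the series matrix, 1 without the filter, 4 with array weights and 2 with the replicate block, and 0 to 8 leaving out 1 array (8 without TMN replicate 1 and 7 without TMN replicate 3). For the mean of 3 strata they were 3 with normexp, 0 with the median, the series matrix, slide as a term and the 3 arrays out, 6 with array weights, 2 with the replicate block and 0 to 30 leaving out 1 array (30 without TFM replicate 4). The night minus morning effect gave 1 call without the 3 arrays and 0 to 264 leaving out 1 array (264 without TFM replicate 4). Control males against females gave 0 with normexp, 1 with quantile normalization, 0 with probes above background on all arrays, 46 with array weights and 0 to 3 leaving out 1 array. Between night and morning controls, 5 of 13 members were called with normexp, against 58.3% of all probes. With the median, the series matrix and array weights 6 of 13 were called each time, against 54.6%, 54.4% and 64.2%. Without the 3 arrays 7 of 13 were called, against 55% of all probes. In each of these settings the share of members called was below that of all probes.

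Several differences of single members changed sign. In males at night, Gnas A_44_P378484 was 0.001 with normexp, 0.15 with the median and the series matrix and 0.16 without the 3 arrays. Kcne2 was 0.022 with quantile normalization, 0.124 with the median and 0.123 with the series matrix. Pax8 was 0.14 with both. Gnas A_64_P139412 was 0.11 with both, 0.068 with array weights and 0.18 without the 3 arrays. Without those arrays Nkx2-1 A_42_P563276 was -0.13, against 0.33 with all arrays, and Kcnq1 A_64_P094313 was 0.075, against -0.37. Kcnq1 A_64_P094313 was -0.028 in females in the morning with normexp, and Gnas A_44_P378484 0.002 in females at night with the series matrix. With slide as a term the night minus morning control difference was -0.16 for Nkx2-1 A_42_P563276 and -0.20 for Hhex. Leaving out 1 array, the ranges in males at night were -0.34 to 0.42 for Gnas A_44_P378484, -0.25 to 0.18 for Kcne2, -0.19 to 0.036 for Pax8 and -0.19 to 0.13 for Gnas A_64_P139412. In females at night they were -0.12 to 0.11 for Nkx2-1 A_42_P563276, -0.33 to 0.17 for Kcnq1 A_42_P787920, -0.11 to 0.32 for Hhex, -0.12 to 0.17 for Gnas A_44_P378484, -0.002 to 0.30 for Kcne2, -0.017 to 0.17 for Foxe1, -0.23 to 0.007 for Kcnq1 A_64_P094313 and -0.004 to 0.28 for Gnas A_64_P139412. For Hhex in night against morning controls the range was -0.10 to 0.31. The median in place of the percentile moved the all-probe median in males at night to 0.16, against -0.01. Dim probes and the saturated Gnas probe carry bounds only, and time, session and slide cannot be told apart.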
